A study of Homo sapiens with 40 samples.

Results

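Exon inclusion was compared directly between human cells that transcribe with the slow RNA polymerase II mutant H1106Y and cells that transcribe with the fast mutant E1126G. The members are the 1985 exon events with a row in both RASL-seq tables, of 2070 events in the H1106Y table and 2312 in the E1126G table, and of 19077 distinct events in the 7 tables of the series. They were matched on the position of the event, its gene, its exon and its strand, with no threshold on a measured value. A further 85 events had a row in the H1106Y table only, and 327 in the E1126G table only. The 1985 events lie in 1506 genes, and 90 of them repeat the values of another event because several annotated exon forms share the same measured junctions.

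All groups were made in Flp-in T-REx cells of the HEK293 line, which derives from embryonic kidney and holds a site for an inducible transgene. Every group, WT included, carries a transgene for an α-amanitin-resistant form (Amr) of Rpb1, the large subunit of the polymerase. Doxycycline was given for 12 to 16 h to induce it, and α-amanitin was then added for 42 h to block the cells' own polymerase. By the labels the groups differ in the transgene alone: WT, H1106Y, E1126G or R749H, the last a slow mutant used below for comparison. Each had 3 RASL-seq libraries, and the labels do not say whether these came from separate cultures, or whether a genotype is 1 clone or a pool.

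RASL-seq ligates pairs of probes across chosen splice junctions of polyA+ RNA and counts the products by sequencing. An included exon gives one kind of junction and a skipped exon another, and the ratio of their counts follows the choice between them. The choice is often made while the gene is being transcribed, so the time before the next, competing splice site emerges can change it. H1106Y and E1126G lie in the trigger loop of Rpb1, a mobile part of the active site, and are known from elongation assays as slow and fast forms. Their direct comparison sets a slow form against a fast one. Elongation rate itself was not examined here.

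The authors' deposited tables give 1 pooled value per genotype and event, with no value per library and no depth. Inclusion levels below are 100 times the inclusion ratio divided by 1 plus that ratio, so they depend on the efficiency of each probe pair. Genotypes are compared only within the same event. The classes by WT inclusion, the class medians, and the rankings and counts by percentage points do set levels of different events side by side. They carry that limit. Every inclusion level quoted in what follows was computed from the authors' deposited tables. Because the same WT value stands in both tables for 1985 of 1985 events, WT cancels when the mutants are set against each other. The difference on the log2 scale is the log2 of the H1106Y ratio over the E1126G ratio, positive where H1106Y includes the exon more. Its error (± SE) came from the error that each deposited p-value implies, and its p-value from an approximate two-sided z with Benjamini-Hochberg adjustment over these 1985 events. An event was called at an adjusted p under 0.05. The sources used here do not say whether the deposited p-values carry the spread between libraries, so all calls compare these libraries. The tables hold no expression levels, so the cell line could not be checked against marker genes.

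The slow and the fast mutant differed in 979 of the 1985 events, 49.3% of those tested. Inclusion was higher in H1106Y in 509 events (25.6%) and higher in E1126G in 470 (23.7%). Over all events the median difference was 0.07 on the log2 scale (95% interval of the median -0.03 to 0.14) and 0.06 percentage points. The 25th and 75th percentiles were -4.44 and 6.30 points, and the 5th and 95th percentiles were -28.1 and 29.4 points. Of the called events 544 (27.4% of all 1985) were at least 10 points apart, 302 at least 20, 72 at least 40 and 8 at least 60. Those at least 40 points apart were again split between the mutants, with 37 higher in H1106Y and 35 higher in E1126G.

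Against their common WT, both mutants had a negative median log2 change over these events, -0.33 in H1106Y and -0.39 in E1126G. The median size of the change without its sign was 1.19 in H1106Y and 0.71 in E1126G. The implied errors also differed, with medians of 0.34 in H1106Y and 0.27 in E1126G. Against WT, 61.9% of the H1106Y table and 47.5% of the E1126G table were called. These comparisons share the WT libraries.

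**Figure D1:**
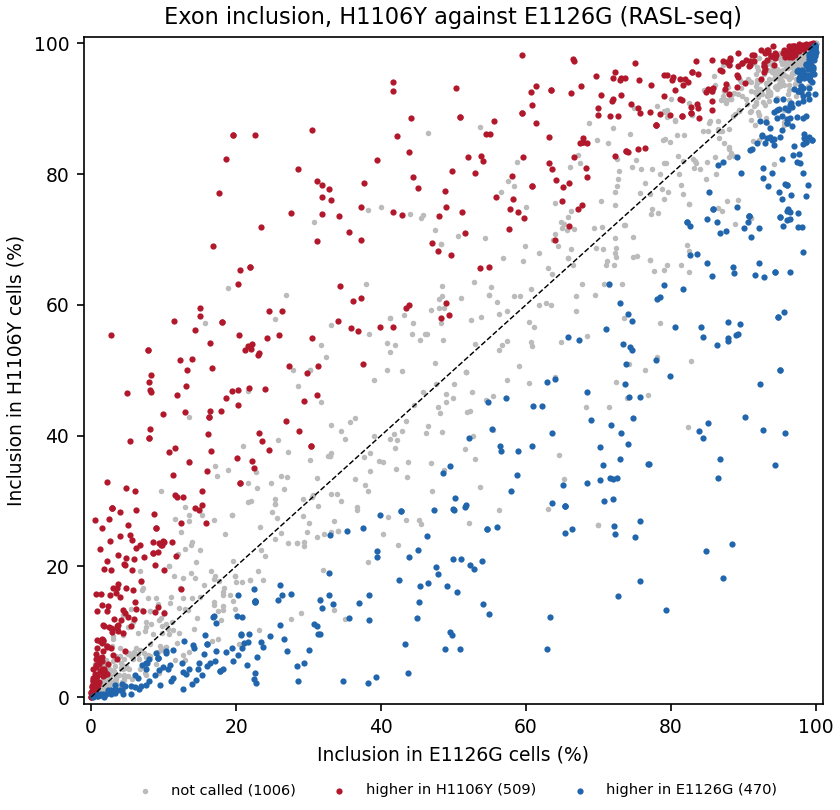
Inclusion of each of the 1985 exon events in E1126G cells (x axis, percent) and in H1106Y cells (y axis, percent), 1 pooled value per genotype, with the line of equal inclusion dashed. The 509 red points were called higher in H1106Y, the 470 blue ones higher in E1126G, and 1006 grey ones were not called.

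The exons with the largest excess in H1106Y included those of RCC1, APAF1 and CCNT1. RCC1 is the exchange factor that charges the GTPase Ran on chromatin. Its exon on chromosome 1 (28857035 to 28857085 on the minimal form of 51 nt, with a longer form of 93 nt sharing the same junction values) was included at 21.9% in WT, 19.7% in E1126G and 85.9% in H1106Y. The mutants differed by 4.64 ± 0.26 (adjusted p = 9.7e-69). APAF1 builds the apoptosome that activates caspases, and its 129-nt exon (chromosome 12, 99097149 to 99097277) stood at 30.8% in WT, 18.7% in E1126G and 82.4% in H1106Y, a difference of 4.34 ± 0.87 (adjusted p = 2.3e-06). CCNT1 is the cyclin of P-TEFb, the kinase that releases paused polymerase. Its 164-nt exon (chromosome 12, 49089782 to 49089945) was at 17.5% in WT, 22.6% in E1126G and 86.0% in H1106Y, a difference of 4.40 ± 0.36 (adjusted p = 2.3e-32).

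The difference on the log2 scale was greatest among these for JMJD6, a nuclear hydroxylase that acts on splicing factors. Its 94-nt exon (chromosome 17, 74717345 to 74717438) was nearly always skipped in WT (3.14%) and in E1126G (2.71%), and was included at 55.4% in H1106Y, a difference of 5.48 ± 0.35. An exon of TRA2A, an SR-like splicing activator, and one of IGF2BP3, an mRNA-binding protein, also belonged to this group. The 90-nt TRA2A exon (chromosome 7, 23570800 to 23570889) was at 28.5% in E1126G and 80.8% in H1106Y. The 126-nt IGF2BP3 exon was at 41.7% in E1126G and 94.0% in H1106Y. RICTOR, the defining subunit of the mTORC2 kinase complex, had a 72-nt exon at 23.5% in E1126G and 71.9% in H1106Y. MTMR3, a phosphoinositide phosphatase, had a 111-nt exon at 41.6% and 92.6% in the same order. The remaining exons of the 12 largest were in LRRC28, ARSK, TMX3 and the gene ENSG00000163067, which has no symbol in the lookup used.

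These 12 exons differed by 47.8 to 66.3 points, and the largest adjusted p among them was 0.0012. Their level in H1106Y was 40.8 to 68.5 points from WT, while their level in E1126G was 0.42 to 13.9 points from WT. Of the 12, 8 had a length that is a multiple of 3, which leaves the reading frame intact when a coding exon is skipped. Whether these exons are coding was not examined. Among all 1985 events 1122 had such a length.

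Where E1126G had the higher inclusion, the 12 largest differences ran from 51.1 to 68.9 points. At their head was ITSN1, an endocytic scaffold. Its 167-nt exon (chromosome 21, 35195791 to 35195957) was at 91.6% in WT, 87.2% in E1126G and 18.3% in H1106Y, a difference of -4.92 ± 0.34 (adjusted p = 1.8e-46). FMNL2, a formin that elongates actin filaments, had a 94-nt exon (chromosome 2, 153501948 to 153502041) at 58.0% in WT, 79.3% in E1126G and 13.4% in H1106Y. This difference of -4.63 ± 0.23 had the smallest adjusted p of the group (4.2e-87). For EFCAB14 the 192-nt exon (chromosome 1, 47154025 to 47154216) was at 92.7% in WT, 88.4% in E1126G and 23.5% in H1106Y.

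The 1584-nt exon of YTHDF2, a reader of m6A-marked mRNA that promotes decay, was at 84.9% in E1126G and 22.4% in H1106Y, a difference of -4.28 ± 0.86. The 106-nt exon of RAB6A, a GTPase of Golgi transport, was at 94.3% in E1126G and 35.5% in H1106Y. HMBOX1, a homeobox protein, had a 72-nt exon at 72.6% and 15.4% in the same order. Exons of CDKL3, MCAM, GK and RPAIN also belonged to the group. Of its 12 exons 5 had a length that is a multiple of 3, beside 1122 of all 1985 events. Their level in H1106Y was 36.3 to 73.3 points from WT, and in E1126G 0.19 to 21.2 points.

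**Figure D2:**
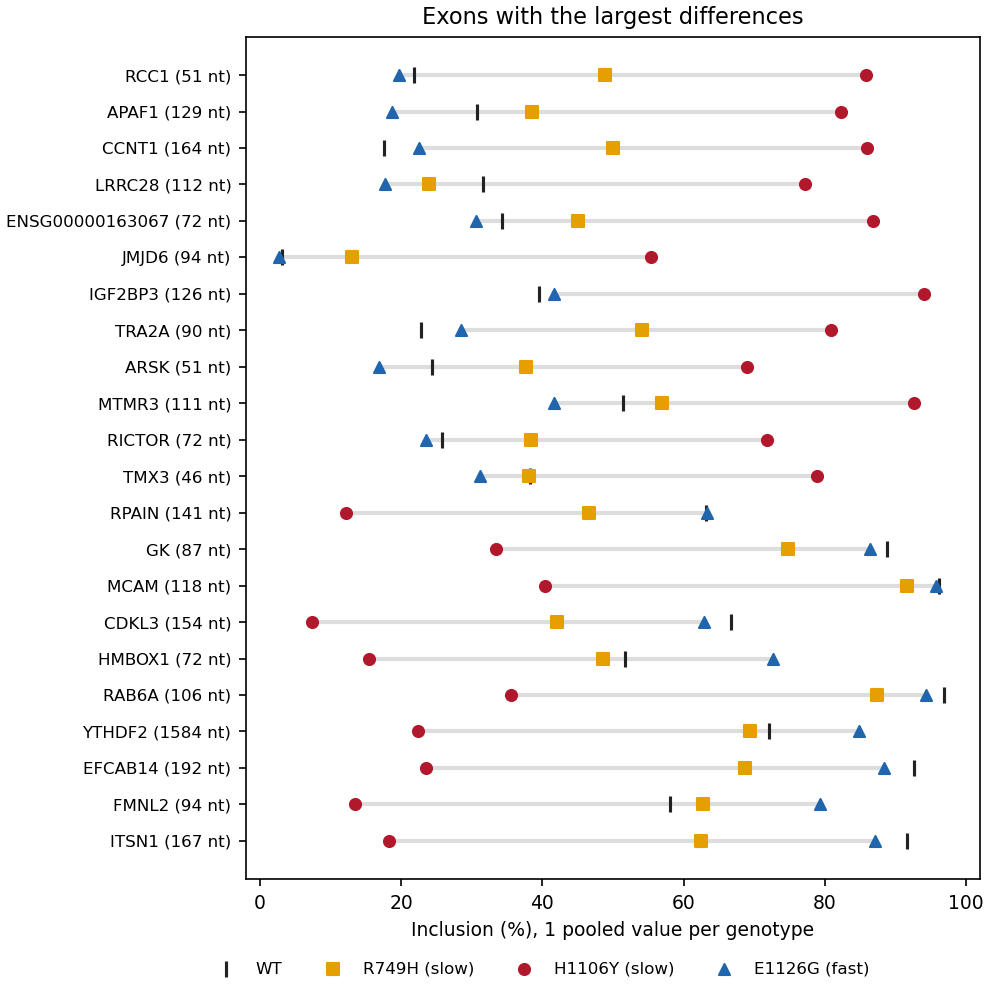
Inclusion (x axis, percent) of 22 of the 24 exons with the largest called differences, 12 higher in H1106Y and 10 higher in E1126G, 1 per gene, with WT as a tick, R749H as a square, H1106Y as a circle and E1126G as a triangle, each 1 pooled value. In the upper 12 rows H1106Y is 47.8 to 66.3 points above E1126G, and in the lower 10 it is 51.1 to 68.9 points below.

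In 180 of the called exons (9.07% of all 1985) the mutants had moved away from WT in opposite directions, each with an adjusted p under 0.05 against WT in its own table. H1106Y was above WT and E1126G below in 118 (5.94%), and the reverse held in 62 (3.12%). Both changes were measured from the same WT value. The exons described here are among the 6 with the widest gap of each kind. NRCAM, a neuronal adhesion molecule, had a 57-nt exon (chromosome 7, 107866089 to 107866145) at 62.8% in WT, 76.5% in H1106Y and 31.8% in E1126G, a difference of 2.80 ± 0.26 between the mutants. The 61-nt exon of RBM5, a splicing regulator of apoptosis genes, was at 65.9% in WT, 85.9% in H1106Y and 42.3% in E1126G. UCHL5, a deubiquitinase of the proteasome, had a 75-nt exon at 33.4% in WT, 58.3% in H1106Y and 15.1% in E1126G. Exons of the growth factor receptor FGFR2 (78 nt) and the gene ENSG00000006114 (303 nt, no symbol in the lookup used) were also of the first kind, 44.8 and 46.4 points apart.

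In the 6 of the second kind, H1106Y was below WT and E1126G above. Besides FMNL2 and HMBOX1, these were FBXO38, BPTF, ZDHHC20 and FAM76B. BPTF is the large subunit of the nucleosome remodeller NURF. Its 174-nt exon (chromosome 17, 65959449 to 65959622) was at 65.9% in WT, 42.0% in H1106Y and 85.1% in E1126G, a difference of -2.98 ± 0.20. FBXO38, a subunit of a ubiquitin ligase, had a 735-nt exon (chromosome 5, 147806776 to 147807510) at 53.7% in WT and 75.8% in E1126G, and in H1106Y it was 48.8 points below E1126G.

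E1126G was also measured by RNA-seq in separate libraries, and H1106Y was not, so only the E1126G side of these 12 exons could be looked at in a second assay. RNA-seq had a row for 11 of them. In the authors' deposited table for RNA-seq, with its p-values adjusted by the Benjamini-Hochberg method, the E1126G change had the same sign as on RASL-seq in 4 of the 6 exons of the first kind and in 5 of the 5 measured ones of the second, and it passed an adjusted p under 0.05 in 1 and 3 of them. FMNL2 went from 90.1% in WT to 99.5% in E1126G (adjusted p = 0.0024), FBXO38 from 72.3% to 91.0% (adjusted p = 0.010) and BPTF from 75.6% to 92.6% (adjusted p = 0.012) in the authors' deposited table. RBM5 went from 87.7% to 70.4% (adjusted p = 0.00091) in the same table. For FGFR2 and ENSG00000006114 the RNA-seq change had the other sign (adjusted p = 0.96 and 0.95).

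Splicing factors were the first gene group examined. SR proteins and their relatives bind exons and recruit the spliceosome, and many control their own mRNA through a poison exon, whose inclusion leads to decay of the mRNA. Of 29 measured events in 19 of these genes, 18 were called (62.1%, against 49.3% of all events), 11 higher in H1106Y and 7 higher in E1126G, and the median difference was 0.62 against 0.07 over all 1985 events. With events that share their values counted once, 16 of 27 were called, 11 of them higher in H1106Y. Genes with called events in H1106Y's favour alone numbered 8, and 1 gene had them in E1126G's favour alone. The 449-nt exon of SRSF7 (chromosome 2, 38976040 to 38976488) was at 22.5% in WT, 73.9% in H1106Y and 31.9% in E1126G (2.60 ± 0.15, adjusted p = 6.9e-67). In SRSF3 the 456-nt poison exon was above WT (37.7%) in both, at 95.7% in H1106Y and 72.2% in E1126G, and the mutants differed by 3.09 ± 0.22. A 120-nt exon of ACIN1, an exon junction factor, was at 93.1% and 50.4% in the same order. Kinases that phosphorylate SR proteins were in this group too: a 64-nt exon of SRPK2 was at 47.0% in H1106Y and 8.12% in E1126G, and a 91-nt exon of CLK1 at 37.7% and 16.5%.

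Other SR-group exons went the opposite way or were not called. BCLAF1, an SR-like factor, had 3 called events, each higher in E1126G, among them a 41-nt exon at 94.2% in E1126G and 85.4% in H1106Y. For the 273-nt exon of the splicing cofactor SRRM2, at 31.1% in WT, the mutants stood at 60.4% in H1106Y and 55.9% in E1126G, with an interval of the difference of -0.79 to 1.32. In TRA2B the 276-nt exon was at 89.1% and 92.2% in the same order (interval -1.11 to 0.05).

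hnRNPs and other splicing regulators, which often oppose SR proteins, were called in 14 of 28 events in 17 genes (beside 49.3% of all events), 5 higher in H1106Y and 9 higher in E1126G, with a median difference of -0.04. The 376-nt exon of TIAL1, a U-rich RNA-binding protein, was at 14.8% in WT, 46.5% in H1106Y and 5.00% in E1126G (4.04 ± 0.21, adjusted p = 6.8e-83). Exons included almost always in WT were among those of the other direction. The 171-nt exon of HNRNPDL was at 98.6% in WT, 98.3% in E1126G and 68.1% in H1106Y, and the 93-nt exon of RBFOX2 at 99.0%, 96.0% and 73.0% in the same order. Core spliceosome genes were called in 7 of 13 events in 10 genes (53.8%), 3 higher in H1106Y. A 96-nt exon of PRPF3, a protein of the U4/U6 snRNP, was at 37.5% in H1106Y and 10.7% in E1126G, and a 70-nt exon of LUC7L, a U1-associated factor, at 40.3% and 73.1%. The 67-nt exon of U2AF1, which recognises the 3′ splice site, was at 51.6% in H1106Y and 78.0% in E1126G (-1.73 ± 0.66, adjusted p = 0.019).

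Genes of polymerase II elongation were called in all 9 of their measured events, which lie in 5 genes, against 49.3% of all events. Inclusion was higher in H1106Y in 8 of them, and the median difference was 3.01. After shared values were counted once there were 6 events, 5 of them higher in H1106Y. Besides CCNT1, the called genes were CCNL1 and CCNL2, cyclins of CDK11 kinases that are linked to splicing, CCNT2, a further P-TEFb cyclin, and the elongation scaffold AFF4. The CCNL2 event was at 99.6% in H1106Y and 98.1% in E1126G. A 202-nt exon of CCNL1 (chromosome 3, 156869518 to 156869719) was at 92.6% in H1106Y and 60.7% in E1126G, and another exon of that gene, listed in forms of 73 to 148 nt, at 28.9% and 2.90%. AFF4 had an 87-nt exon at 98.4% in H1106Y and 89.2% in E1126G (2.93 ± 0.31). In WT the 202-nt CCNL1 exon was at 70.6% on RASL-seq and 31.0% in RNA-seq, and the 148-nt form at 3.13% and 62.4%. The AFF4 exon was at 94.0% and 88.8%. CCNT2 went the other way, with an 87-nt exon at 0.523% in H1106Y and 5.47% in E1126G against 12.8% in WT.

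For 3′ end formation and RNA surveillance, 13 of 21 events in 12 genes were called (61.9%, against 49.3% of all events), 6 higher in H1106Y and 7 higher in E1126G. DIS3, a nuclease of the exosome, had a 68-nt exon (chromosome 13, 73355427 to 73355494) at 7.20% in WT, 63.2% in H1106Y and 20.3% in E1126G (2.76 ± 0.60). The 99-nt exon of UPF3A, a factor of nonsense-mediated decay, was at 20.3% in H1106Y and 52.2% in E1126G, and a 56-nt exon of the same gene at 40.4% and 63.6%. In FIP1L1, a polyadenylation factor, the 45-nt exon was below WT (30.5%) in both, at 4.28% in H1106Y and 14.7% in E1126G (-1.95 ± 0.18).

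Cytoskeleton and adhesion genes held 75 events in 43 genes. Of these 39 were called (52.0%, beside 49.3% of all events), 21 higher in H1106Y and 18 higher in E1126G, and the median difference was -0.19. The 63-nt exon of EPB41, which ties spectrin to actin, was at 82.0% in WT, 52.6% in H1106Y and 23.1% in E1126G (1.88 ± 0.21). In SPTAN1, α-spectrin, the 60-nt exon was at 70.6%, 52.3% and 23.1% in the same order (1.87 ± 0.18). INF2, a formin, had a 57-nt exon at 97.6% in H1106Y and 66.5% in E1126G. ARHGEF28, a guanine nucleotide exchange factor, had a 78-nt exon at 76.0% and 33.1%. This list also counts the endocytic genes ITSN1 and PICALM, which are not in the list of vesicle transport genes below. The 150-nt exon of PICALM, a clathrin adaptor, was lower in H1106Y, at 55.3% against 88.9% in E1126G. In MARK3, a polarity kinase, a 27-nt exon measured between one pair of flanking exons was below WT (78.7%) in both, at 12.4% in H1106Y and 20.1% in E1126G. Between another pair it was at 80.8% and 77.4% and was not called (interval -0.22 to 0.81).

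Vesicle transport genes were called in 17 of 28 events in 19 genes (60.7%, against 49.3% of all events), 8 higher in H1106Y and 9 higher in E1126G. DNM1L, the dynamin of mitochondrial fission, had a 78-nt exon at 88.2% in H1106Y and 55.6% in E1126G. APBB2, an adaptor of the amyloid precursor protein, had a 63-nt exon at 19.8% and 47.6% (-1.87 ± 0.71, adjusted p = 0.019), and SNX14, a sorting nexin, a 27-nt exon at 31.5% and 58.0%. Chromatin regulators were called in 31 of 50 events in 33 genes (62.0%, against the same 49.3%), 13 higher in H1106Y and 18 higher in E1126G, with a median difference of -0.18. With events of shared values counted once, the median was 0.10. In SMARCA2 and SMARCA1, ATPases of remodelling complexes, exons of 54 and 36 nt were at 12.0% and 38.3% in H1106Y and at 45.0% and 70.2% in E1126G. A 74-nt exon of KMT2E, a relative of histone methyltransferases, was at 74.2% in H1106Y and 41.6% in E1126G.

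Genes of p53 signalling, the cell cycle and apoptosis were called in 17 of 37 events in 23 genes (45.9%, against 49.3% of all events), 8 higher in H1106Y and 9 higher in E1126G. The APAF1 exon described above was among the former. MDM4, a p53 inhibitor, had a 39-nt exon at 88.6% in H1106Y and 44.1% in E1126G (3.30 ± 0.86). CHEK2, a DNA damage kinase, had a 62-nt exon lower in H1106Y, at 55.6% against 89.2% in E1126G. DNA replication and repair genes were called in 14 of 30 events in 16 genes (46.7%), 7 in each direction. There a 119-nt exon of RAD51D, a recombination factor, was at 93.5% in H1106Y and 67.5% in E1126G.

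In kinases and phosphatases of growth factor signalling, 19 of 39 events in 25 genes were called (48.7%, beside 49.3% of all events). Of these 15 were higher in H1106Y and 4 higher in E1126G, and the median difference was 0.98. Among them were the 78-nt FGFR2 exon, at 65.3% in H1106Y and 20.5% in E1126G, and a 129-nt exon of TSC2, an mTOR inhibitor, at 53.3% and 22.1%. A 24-nt exon of CSNK1G3, a casein kinase, went the other way, 47.2 points lower in H1106Y than in E1126G (72.2%). So did a 253-nt exon of RPS6KB1, the S6 kinase, at 49.1% and 79.8% (-2.04 ± 0.87, adjusted p = 0.041). None of the 11 lists was tested as a set.

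**Figure D3:**
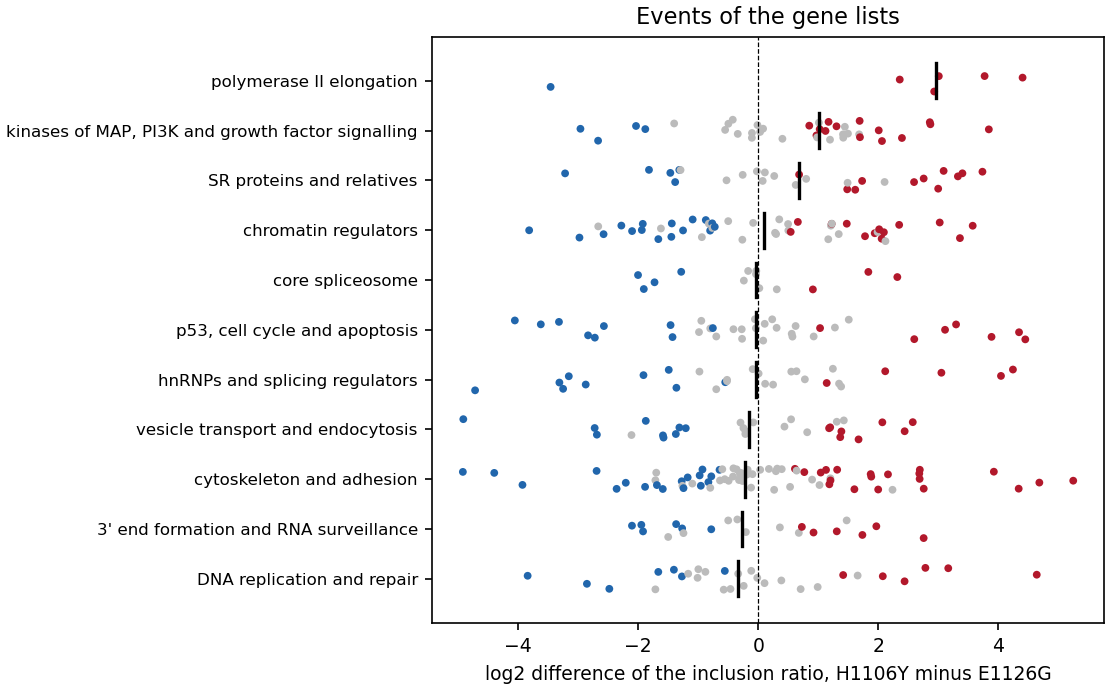
The log2 difference of the inclusion ratio (x axis, H1106Y minus E1126G) for each event of the 11 gene lists (rows), with events that share their values drawn once and the median as a black bar. Red points were called higher in H1106Y, blue ones higher in E1126G, and grey ones were not called; points are spread vertically only for legibility. The elongation genes have 5 red points and 1 blue one, and the other lists hold called events on both sides.

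Within a gene, exons could go in opposite directions. Of 95 genes with at least 2 distinct called events, 45 had one higher in H1106Y and one higher in E1126G, and in 18 of these both were at least 10 points apart. ITSN1 had the widest range: beside the 167-nt exon lower in H1106Y, its 46-nt exon (chromosome 21, 35199122 to 35199167) was at 98.2% in H1106Y and 59.4% in E1126G. In RCC1 a 129-nt exon upstream was lower in H1106Y, at 7.14% against 30.1% in E1126G. RBM27, an RNA-binding protein, had a 165-nt exon at 54.1% in H1106Y and 16.5% in E1126G, and a 297-nt exon at 8.10% and 43.4%. In TRA2A the event listed in forms of 79 to 312 nt was at 73.6% in H1106Y and 90.8% in E1126G, against the 90-nt exon described above. Within TCF7L2, a transcription factor of Wnt signalling, 3 events were higher in H1106Y and 2 higher in E1126G. RFC5, a clamp loader of DNA replication, had a 126-nt exon above WT (31.4%) in both, at 89.3% in H1106Y and 75.8% in E1126G, and a 59-nt exon below WT (51.1%) in both, at 9.35% and 24.7%. H1106Y was thus further from WT on both sides. In MYO6, an actin motor, the 39-nt exon was at 45.9% in H1106Y and 75.8% in E1126G, and the 27-nt exon at 19.4% and 5.70%. Exons of CREM, a factor responding to cAMP, differed likewise: the 36-nt one was at 54.0% in H1106Y and 22.2% in E1126G, and the 189-nt one at 56.7% and 80.6%. Events of a gene can share junctions, so they are not independent of each other. By their positions, ITSN1, TRA2A, RFC5, TCF7L2, DNM1L and VEGFA hold pairs in which the junction that skips one exon is an inclusion junction of the other. Opposite directions are partly built into such pairs, and the size of that part was not tested.

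**Figure D4:**
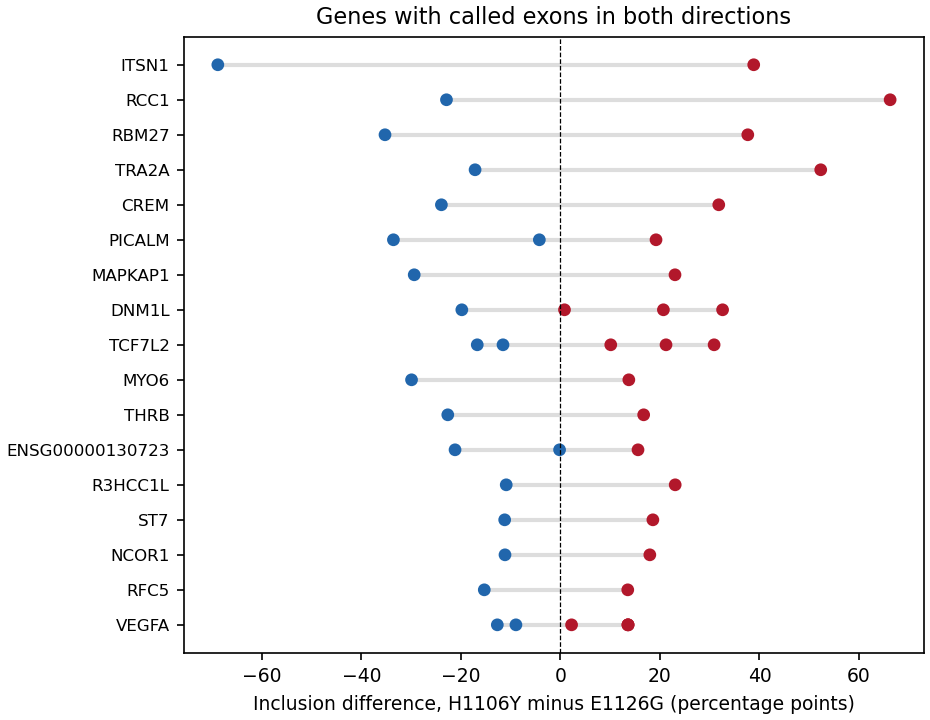
Inclusion difference (x axis, H1106Y minus E1126G, percentage points) of the distinct called events in 17 of the 18 genes that have events at least 10 points apart in both directions. Each point is 1 event, red where higher in H1106Y and blue where higher in E1126G, and grey lines join the events of a gene, from -68.9 to 38.8 points in ITSN1.

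The direction of the difference went with how often WT cells include the exon. Among 502 exons with a WT inclusion under 20%, 182 were higher in H1106Y and 76 higher in E1126G, and the median difference was 0.64. Among 827 exons over 80%, 144 were higher in H1106Y and 230 higher in E1126G, with a median of -0.25. The 656 exons between these bounds were nearly even, with 183 and 164. WT cancels in the difference itself. With exons classed by WT inclusion in the separate RNA-seq libraries, where 1500 events had a row, the counts were 79 and 43 under 20%, 189 and 131 at 20% to 80%, and 161 and 184 over 80%. The assays could place an exon differently in WT. The CCNT1 exon was at 17.5% on RASL-seq and 83.0% in RNA-seq, the 78-nt FGFR2 exon at 34.2% and 95.9%, and the 253-nt RPS6KB1 exon at 72.3% and 9.02%. The 90-nt TRA2A exon was at 22.8% and 18.9%, and the 449-nt SRSF7 exon at 22.5% and 25.3%. By the RASL-seq classes, the median log2 change from WT in exons under 20% was 0.15 in H1106Y and -0.36 in E1126G. In exons over 80% it was -0.67 and -0.38.

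Among exons longer than 150 nt and shorter than 300 nt, more were higher in E1126G. Of 347 such exons, 73 were higher in H1106Y and 111 higher in E1126G, and the median difference was -0.37. In the other classes more exons were higher in H1106Y: 16 against 12 of the 49 exons of at most 27 nt, 65 against 42 of the 227 exons of 28 to 50 nt, 329 against 287 of the 1268 exons of 51 to 150 nt, and 26 against 18 of the 94 exons of 300 nt or more. WT inclusion moved with length, with a median of 78.7% in the class between 150 and 300 nt and 64.7% at 51 to 150 nt. Within exons over 80% in WT, those between 150 and 300 nt were higher in H1106Y in 32 and in E1126G in 61, and those of 51 to 150 nt in 79 and 139. Within exons under 20% in WT, the counts were 23 and 19 between 150 and 300 nt and 129 and 48 at 51 to 150 nt. The part of WT inclusion in the length pattern, and of length in the inclusion pattern, was not tested.

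Among the shortest exons, those of CSNK1G3 (24 nt), RAPGEF2 (24 nt) and NEDD1 (21 nt) had the largest differences. RAPGEF2, an exchange factor for Rap, was at 74.1% in H1106Y and 27.6% in E1126G (2.90 ± 1.12, adjusted p = 0.021), and NEDD1, a centrosome protein, at 58.1% and 94.8% (-3.72 ± 0.28). The NEDD1 exon shares its values with a longer form of 253 nt, so its length class is uncertain. Of exons of 28 to 50 nt, those of TMX3, PLCB4 and RBMS3 led, the last with a wide error (-3.61 ± 1.52, adjusted p = 0.036). Exons with a length that is a multiple of 3 were higher in H1106Y in 320 and in E1126G in 242 of 1122 cases. For the 863 of other lengths the counts were 189 and 228. Whether an exon is coding or holds a stop codon was not examined, so these are classes of length alone. Exons with a length that is a multiple of 3 had a lower median WT inclusion, 59.8% against 73.8%, and the part of that difference was not tested. By the span between the flanking exons the counts were 195 and 149 of 662 events in the shortest class (up to 4740 nt), 158 and 183 of 661 in the middle class (up to 13464 nt), and 156 and 138 of 662 in the longest class.

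**Figure D5:**
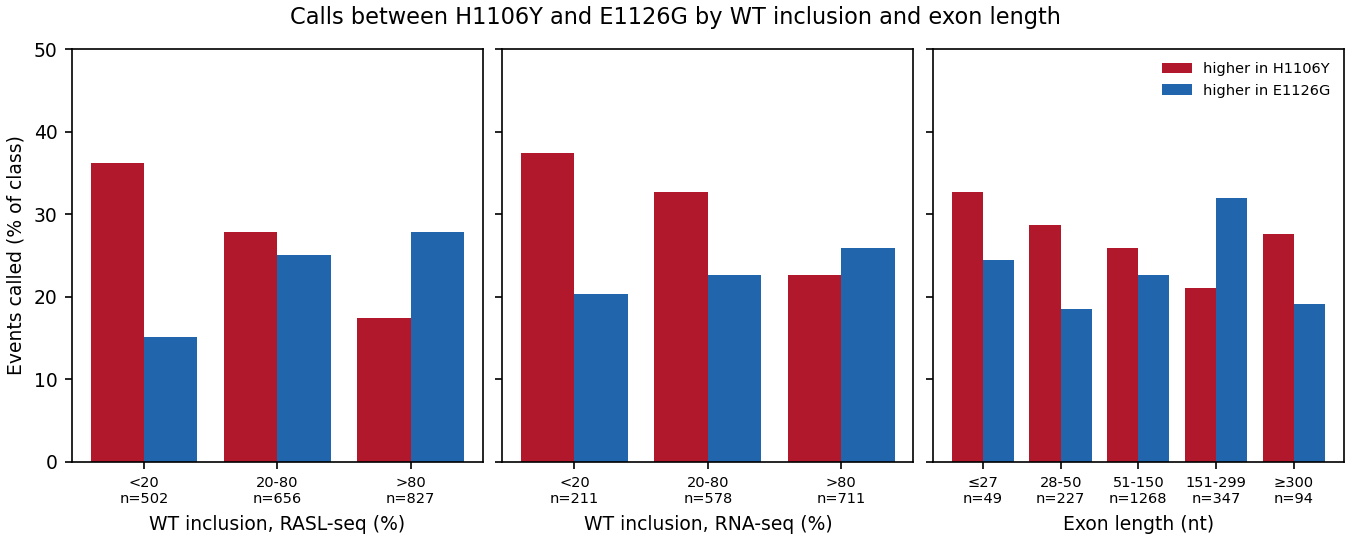
Share of events called higher in H1106Y (red) and higher in E1126G (blue), as a percent of each class (y axis), by WT inclusion on RASL-seq, by WT inclusion in RNA-seq and by exon length, with the number of events under each class. Under 20% WT inclusion 182 of 502 events are higher in H1106Y, and over 80% it is 144 of 827.

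H1106Y was also set against R749H, the other slow mutant, in the same way. They differed in 825 of 1987 events (41.5%), 260 higher in H1106Y (13.1%) and 565 higher in R749H (28.4%). The 12 exons furthest above E1126G in H1106Y had a row for R749H in 11 cases, and H1106Y was called higher than R749H in all 11. For those furthest below E1126G, H1106Y was called lower than R749H in 12 of 12. The JMJD6 exon, for instance, was at 13.0% in R749H, a difference of 3.05 ± 0.35 from H1106Y, and the RAB6A exon at 87.5%. These exons were chosen for an extreme H1106Y value, so a gap to R749H is partly built into the choice. In FGFR2 the 78-nt exon was at 66.4% in R749H and 65.3% in H1106Y (-0.07, adjusted p = 0.94), and in AFF4 the 87-nt exon at 98.5% and 98.4% (adjusted p = 0.92). Among the exons with opposite moves from WT, H1106Y and R749H were called apart in 3 of 6 of the first kind and 6 of 6 of the second. R749H lay on the E1126G side of WT (adjusted p under 0.05) in exons such as NRCAM (49.9%), ENSG00000006114 (21.4%), FBXO38 (65.7%) and FAM76B (41.8%). At that threshold it lay on the H1106Y side in FGFR2, RBM5, UCHL5 and ZDHHC20.

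Many events were not resolved. Of the 1006 that were not called, 147 were at least 10 points apart, and the median error of the difference was 0.63 there against 0.34 in called events. For BAZ2A, a nucleolar remodelling factor, the 90-nt exon was at 61.5% and 26.9%, with an interval of -0.85 to 5.09. At an unadjusted p under 0.05 the mutants differed in 1070 events.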

How the data were processed

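RASL-seq compared 3 libraries each of WT, H1106Y, E1126G and R749H cells. The submitters' processing notes name Bowtie 0.12.7, edgeR 3.7.17 and the builds GRCh37 and hg19, with no role for each. Positions follow the files, printed 1-based. For each event the authors deposited 3 values: WT inclusion over exclusion as a natural log, the mutant's log2 change from it, and an unadjusted p-value. Log base and sign were checked on the values: WT ratios matched a quotient of whole numbers (denominators to 300, tolerance 1e-09 of the value) in 61.8% of events with the natural log and 0.302% with base 2, and mutant ratios did so in 71.3% (H1106Y) and 61.1% (E1126G) with mutant over WT, against 4.94% and 3.88% with the opposite sign.

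With Python 3.11.15, numpy 2.4.6, scipy 1.17.1, pandas 2.3.3 and matplotlib 3.10.9, the mutant ratio was formed from both logs, and the error of each log2 change was its size divided by the normal quantile of its p-value. The variances of both changes were added for the z of the difference, which ignores the shared WT and so enlarges the error. One deposited p-value, listed at 0 (MARK3), was set to the smallest positive number. No value per library was used, so no SD, depth, counting interval or paired check is given. Members and gene lists were chosen with earlier results of these data known. Named events are the 12 largest differences in percentage points in each direction, the 6 largest called against WT in opposite directions, the 4 largest called in each of 11 gene lists and the 3 largest in each length class; further events of the lists and of genes with both directions were named after their values were seen. Symbols were found for 1476 of 1506 gene identifiers. Exon sequences, the intron tables and the GRO-seq libraries are not analysed here, and some genes that the rule names are not reported here.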

Additional observations from a re-analysis of the deposited data

Results flagged for a closer look

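The change from WT differed between H1106Y and E1126G in 979 of 1985 events and between H1106Y and R749H in 825 of 1987, by the approximate z of the difference itself.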

How the results depend on the processing

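No paired analysis was possible because the tables hold 1 pooled value per genotype, and for the same reason no replicate could be left out. With both mutants required at 5% to 95% inclusion, 1127 events were left, of which 553 were called, 290 higher in H1106Y and 263 in E1126G, and the median difference over all of them was 0.74 points. With WT inclusion at 5% to 95%, 310 of 1268 events were higher in E1126G and the median was 0.91 points. These filters test fewer events. With a gap of at least 10 points required as well, 544 events were called, 285 higher in H1106Y and 259 in E1126G. Thresholds of 0.01 and 0.1, a subtracted WT variance, errors from the t distribution, raised errors, a centred difference and 1 row per exon position kept these counts within 1.5 times, as did 1 row per set of identical values, an alternative chosen after seeing the data. Of 73 named events, 66 kept direction and call under every alternative that could be run for them. The threshold of 0.1 and the subtracted WT variance can only keep or add calls. So can the errors from the t distribution, which were smaller, with the p-value still taken from the normal distribution. That the named events stayed called under those alternatives was therefore fixed in advance. U2AF1, APBB2, RPS6KB1, RAPGEF2 and RBMS3 (48 nt) were not called at 0.01, AFF4 differed by under 10 points, and 1 further event was not called with raised errors. None of the 73 changed direction, which only the centred difference could have altered.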
